A study of Mus musculus with 24 samples.

Results

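The cells described here were peritoneal exudate cells of vehicle-treated mice that had been cultured with Escherichia coli before RNA extraction. They are the 6 vehicle libraries of the stimulation experiment, out of 24 samples in the series, and were chosen by their labels and not by any measured value. Male C57BL/6 mice of 7 to 12 weeks received 1 mL of 4% Brewer thioglycollate (TGC) into the peritoneum, a sterile irritant that draws leukocytes into the cavity, and then daily saline injections as vehicle. The lavage was plated without a described sort and kept with the bacteria for 6 h at a multiplicity of infection of 15. Poly(A) RNA was then sequenced. All 6 libraries carry both the irritant and the bacteria, and no well without bacteria is among the samples, so the levels below describe a stimulated state and no induction could be measured. The vehicle lungs and hearts used for comparison came from 3 mice with cecal ligation and puncture (CLP), a model of polymicrobial sepsis. The source label of those organs names thioglycollate, whereas their titles name CLP.

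Gram-negative bacteria are sensed by phagocytes mainly through Toll-like receptor 4 with its co-receptor CD14. The signal runs through MyD88 to NF-kappaB and AP-1, which switch on cytokines, chemokines and their own feedback inhibitors, and through TRIF to interferon regulatory factors and interferon beta, which in turn drives the interferon-stimulated genes. Macrophages elicited by thioglycollate are recruited monocyte-derived cells with a rich lysosomal content, and they replace much of the resident peritoneal population in the lavage.

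Total counts ran from 31126823 to 112456050 per library. They were 31126823, 53319385 and 42449036 in replicates 1 to 3 and 102812891, 112456050 and 101176842 in replicates 4 to 6. A level is given in CPM, the gene's count divided by the total of its library and scaled so that 10000 CPM is 1% of the counts, so that an order by CPM is an order of shares of the counts, which grow with transcript length. Levels per length are given in TPM, the count per base of transcript scaled to the same total in each library. The gene with the highest CPM was also the highest in TPM in 16 of the 30 function lists described below, and a gene said to lead a list leads it by CPM. A mean of at least 1 CPM was found for 11297 of 54658 gene symbols, and 10270 reached 1 CPM in every library. Replicate 3 stood farthest from the other libraries, with a standard deviation (SD) of 0.40 of its log2 differences from their mean over the abundant genes, followed by replicate 4 with 0.35 and replicate 6 with 0.30. Replicate 2 was closest with 0.18. On the first principal component, which held 58.2% of the variance, replicates 3 and 4 lay at 12.6 and 8.56 and replicate 6 at -9.60. Pairs of libraries differed by more than counting error, so none was treated as 1 library deposited more than once.

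The promoters of 6 genes are shown first because these genes stand at the top of the ranking and are known targets of the pathways above. They are the 4 of the 30 highest genes whose promoter window held both motifs searched, Cxcl10, Gbp2, B2m and Gbp5, together with Rsad2, the highest interferon-stimulated gene, and Cxcl2, the highest chemokine gene by CPM. This choice was made after the matches were seen. The windows are those of RefSeq on GRCm38.p6, 300 bases from 250 before to 50 after the annotated start, written 5′ to 3′ on the strand of the gene. Capitals mark a match on either strand to an NF-kappaB site, GGGA and TTCC with any 2 bases between them, or to the core of the interferon-stimulated response element, GAAA and GAAA with any 2 bases between them.
Rsad2, chr12:26456403-26456702, minus strand: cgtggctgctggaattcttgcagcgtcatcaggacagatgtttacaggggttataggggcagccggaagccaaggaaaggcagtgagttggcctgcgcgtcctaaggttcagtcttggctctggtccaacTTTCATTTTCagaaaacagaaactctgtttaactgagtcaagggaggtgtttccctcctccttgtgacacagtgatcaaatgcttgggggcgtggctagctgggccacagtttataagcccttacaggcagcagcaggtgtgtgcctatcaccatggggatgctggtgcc
Cxcl2, chr5:90903649-90903948, plus strand: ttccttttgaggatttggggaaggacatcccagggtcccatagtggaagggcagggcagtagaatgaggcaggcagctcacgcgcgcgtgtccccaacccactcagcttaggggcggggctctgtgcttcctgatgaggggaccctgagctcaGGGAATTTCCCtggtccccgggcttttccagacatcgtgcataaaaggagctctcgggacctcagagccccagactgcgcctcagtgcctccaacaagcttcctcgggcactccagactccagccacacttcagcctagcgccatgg
Cxcl10, chr5:92348840-92349139, minus strand: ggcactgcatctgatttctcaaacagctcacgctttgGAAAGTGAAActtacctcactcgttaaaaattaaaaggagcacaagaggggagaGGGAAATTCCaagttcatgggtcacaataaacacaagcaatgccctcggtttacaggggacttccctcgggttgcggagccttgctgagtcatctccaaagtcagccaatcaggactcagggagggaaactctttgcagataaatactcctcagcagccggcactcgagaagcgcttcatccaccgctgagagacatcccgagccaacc
Gbp2, chr3:142620413-142620712, plus strand: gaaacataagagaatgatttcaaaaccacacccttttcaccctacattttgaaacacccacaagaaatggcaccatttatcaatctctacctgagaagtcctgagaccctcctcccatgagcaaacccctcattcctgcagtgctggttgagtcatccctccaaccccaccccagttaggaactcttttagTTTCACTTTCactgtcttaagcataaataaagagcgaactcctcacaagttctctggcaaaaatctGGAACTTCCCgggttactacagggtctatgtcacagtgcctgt
B2m, chr2:122147437-122147736, plus strand: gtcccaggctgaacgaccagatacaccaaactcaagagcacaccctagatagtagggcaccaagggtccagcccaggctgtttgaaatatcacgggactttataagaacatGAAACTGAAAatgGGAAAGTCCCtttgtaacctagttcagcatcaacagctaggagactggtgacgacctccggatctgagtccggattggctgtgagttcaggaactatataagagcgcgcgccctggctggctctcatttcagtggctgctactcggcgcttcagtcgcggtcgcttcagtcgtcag
Gbp5, chr3:142496684-142496983, plus strand: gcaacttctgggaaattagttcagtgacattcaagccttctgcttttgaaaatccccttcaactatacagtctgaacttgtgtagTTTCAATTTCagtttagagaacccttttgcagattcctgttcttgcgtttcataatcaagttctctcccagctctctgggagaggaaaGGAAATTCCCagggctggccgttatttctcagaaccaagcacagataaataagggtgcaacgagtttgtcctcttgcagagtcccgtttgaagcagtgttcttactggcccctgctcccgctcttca
In the Cxcl2 window the capitals are 2 matches to the NF-kappaB site that overlap, 1 on each strand, and in the B2m window the matches to both motifs lie side by side.

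Of the 30 highest genes 25 had a promoter in the table, and 8 of these (32.0%) held the interferon motif and 6 (24.0%) the NF-kappaB motif. Among the 200 highest genes 164 had a promoter, with 33 (20.1%) and 10 (6.10%) holding the motifs. Over all 27025 genes of the table the shares were 3.99% and 1.63%, and over the 8676 matched genes with at least 1 CPM they were 4.30% and 1.82%. A match in such a window is a description of its letters only, and a gene with several windows was counted once if any window matched.

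The transcriptome was spread over many genes, and its 30 highest genes included 4 each of the interferon response and the microbicidal and metabolic effectors, and 3 each of the chemokines, MHC class I presentation and the lysosome. Of the genes with at least 1 CPM these lists made up 0.549%, 0.186%, 0.195%, 0.186% and 0.522%, in that order. The 30 highest genes held 16.7% ± 0.795 (SD, n = 6) of all counts and the 200 highest 41.7% ± 1.13. The 61 highest genes held 25% of the counts and the 332 highest 50%. Of the 30 highest, 29 were protein coding, and the other, CT010467.1, is annotated as ribosomal RNA.

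**Figure D1:**
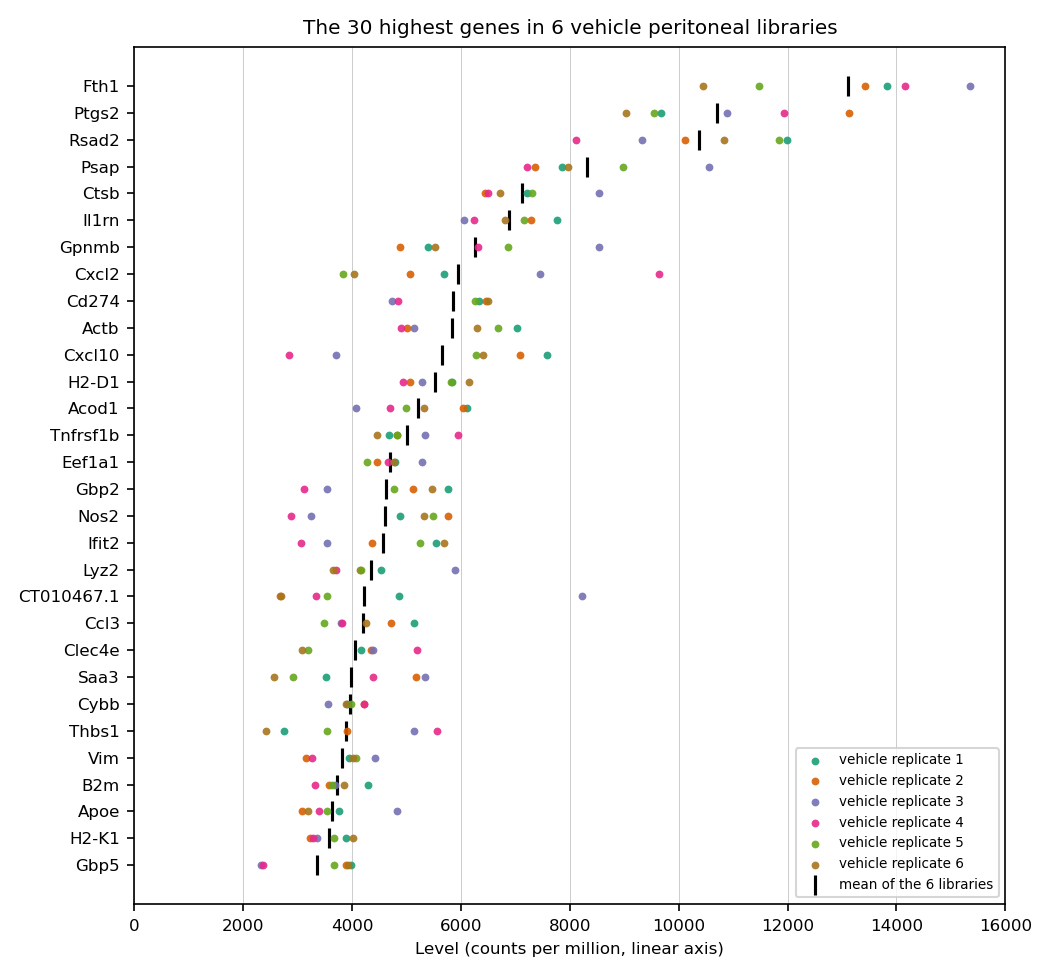
Level in CPM (x axis, linear) of the 30 genes with the highest mean over the 6 vehicle libraries, ordered by mean. Each coloured point is 1 library and the black bar the mean, and Fth1 is at the top with 10442 to 15352 CPM. The SDs of Cxcl2, CT010467.1 and Cxcl10 are the largest with 2230, 2113 and 1922 CPM, followed by 1820 CPM for Fth1.

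Fth1, the heavy chain of ferritin that stores iron in a safe form, was the highest gene in CPM. Its levels had a lowest value of 10442, a median of 13625 and a highest of 15352 CPM (gene ENSMUSG00000024661.7, chr19:9980598-9985098 on mm10). The light chain Ftl1 reached 1187 CPM ± 293 and Hmox1, which breaks down haem, 311 CPM ± 79.4. All 3 were lowest in replicate 6, and the 16 genes for iron and haem handling together took 1.57% ± 0.215 of the counts, most of it Fth1.

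Genes of microbicidal and metabolic effectors took 3.10% ± 0.337 of the counts over 21 members. Ptgs2, the inducible cyclooxygenase that makes prostaglandin precursors, ranged from 9026 through a median of 10277 to 13126 CPM (ENSMUSG00000032487.8, chr1:150100031-150108227). Acod1, whose product makes the antibacterial metabolite itaconate, lay between 4073 and 6116 CPM with a median of 5148. Nos2, the inducible nitric oxide synthase, lay between 2881 and 5762 CPM with a median of 5105. Both Acod1 and Nos2 had their lowest 2 values in replicates 3 and 4, whereas Ptgs2 was lowest in replicate 6 and highest in replicate 2. Saa3, an acute-phase protein made by macrophages, followed another order, with 5331 CPM in replicate 3 and 2571 in replicate 6.

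Interferon response genes had the largest share of the counts of any list. Its 63 members held 6.97% ± 1.08 of all counts, 62 of them had at least 1 CPM, 56 at least 100 CPM, and 28 stood among the 200 highest genes of the transcriptome. Rsad2, which encodes the antiviral enzyme viperin, had 8119, 10475 and 11992 CPM as its lowest, median and highest level (ENSMUSG00000020641.16, chr12:26442746-26456452). Gbp2 and Gbp5, guanylate-binding proteins that attack vacuoles of intracellular bacteria, ranged from 3111 to 5768 and from 2330 to 3983 CPM. Ifit2, which binds foreign RNA, ranged from 3058 to 5688 CPM. Replicates 3 and 4 were the 2 lowest libraries for Rsad2, Gbp2, Gbp5 and Ifit2. The whole list took 8.15%, 7.13%, 5.81%, 5.49%, 7.50% and 7.73% of the counts in replicates 1 to 6, so that replicates 3 and 4 lay apart from the other libraries at the low end.

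The transcripts of the lysosome and its proton pump took 4.55% ± 0.613 of the counts, and all 59 members had at least 1 CPM. Over all symbols, 11297 of 54658 did. Psap, the precursor of the saposins that help to degrade sphingolipids, ranged from 7210 through a median of 7912 to 10555 CPM. Ctsb, a cysteine protease, ranged from 6449 through 6964 to 8541 CPM, and Lyz2, the lysozyme of macrophages, from 3655 through 4151 to 5893 CPM. Replicate 3 was highest for all 3 genes and for 37 of the 47 abundant members of the list, where 22.6% of all abundant genes were highest in that library. Abundant here means a mean of at least 100 CPM, which 1780 genes reached.

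The list named for NF-kappaB subunits and feedback inhibitors took 3.13% ± 0.0967 of the counts with little difference between libraries. It is broader than its name, since besides Socs3 it holds Zfp36, Gadd45b, Cflar and Pim1 with 3022, 2578, 1999 and 1908 CPM. Its share is thus not that of NF-kappaB subunits and their inhibitors alone. Nfkbia, which encodes the inhibitor that holds NF-kappaB in the cytoplasm, had 3208 CPM ± 258, Tnfaip3, a ubiquitin-editing enzyme that ends the signal, 3098 ± 174, and Socs3, an inhibitor of cytokine receptors, 3104 ± 246 CPM. AP-1 and immediate early genes took 1.30% ± 0.0698, led by Junb with 2271 CPM ± 157, Klf6 with 1906 ± 176 and Atf3 with 1582 ± 213. The coefficient of variation (CV, the SD over the mean) of these 6 genes lay between 5.61% for Tnfaip3 and 13.5% for Atf3.

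Of the cytokines and growth factors, 39 of 44 had at least 1 CPM, where 11297 of all 54658 symbols did. The list took 2.13% ± 0.185 of the counts. By CPM its leader was an inhibitor, Il1rn, the antagonist of the interleukin-1 receptor, with 6048, 6986 and 7761 CPM as lowest, median and highest level. Inhba, a subunit of activin A, followed with 3078 CPM ± 572 and Tnf, the prototypic inflammatory cytokine, with 2923 ± 541 CPM. Per length the order turned, with 5732 TPM ± 1136 for Tnf and 3995 ± 427 for Il1rn. Tnfrsf1b, a receptor for that cytokine, had 5010 CPM ± 541 itself.

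The chemokines took 2.34% ± 0.208 of the counts by CPM but 5.59% ± 0.501 of the TPM, since their transcripts are short. By TPM Ccl3, which attracts monocytes and T cells, was the highest protein-coding gene of all with 17574 TPM ± 2457, followed by B2m, the light chain of MHC class I, with 13876 ± 1060 and Fth1 with 12087 ± 1330. Above them stood only Gm23935, a miRNA entry of 57 bases with 32262 TPM ± 15443, for which a level per length has little meaning. Of the 30 genes highest by CPM 17 were among the 30 highest by TPM.

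The pair of chemokines that led by CPM did not follow each other across libraries. Cxcl2, which attracts neutrophils, had 5696, 5054, 7459, 9636, 3841 and 4032 CPM in replicates 1 to 6. Cxcl10, an interferon-induced attractant of T and NK cells, had 7575, 7089, 3701, 2835, 6273 and 6413 CPM. Replicates 3 and 4 were thus the highest libraries for Cxcl2 and the lowest for Cxcl10. Their CVs were 37.5% and 34.0%, against 21.2% for Gpnmb and 9.51% to 16.02% for the other 8 of the 10 highest genes.

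**Figure D2:**
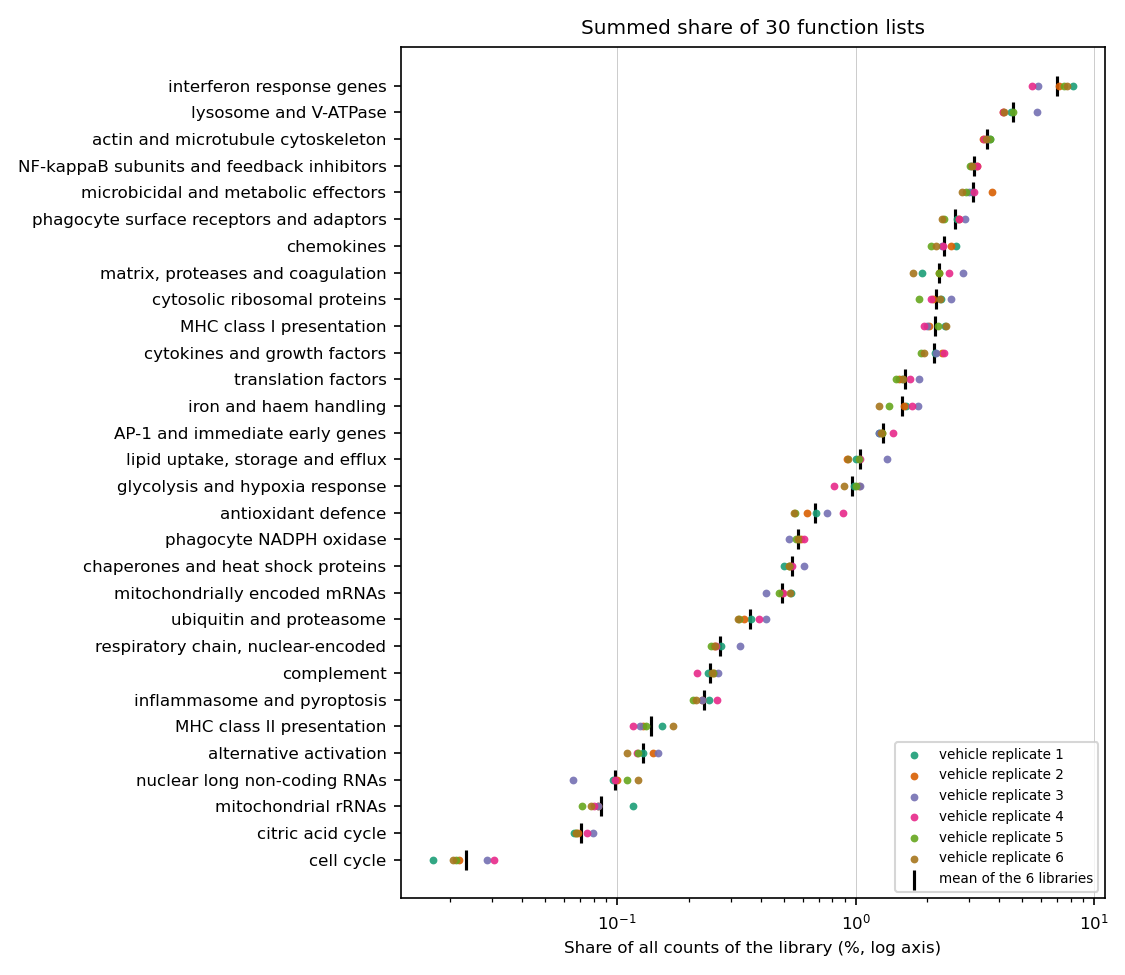
Share of all counts (x axis, %, log scale) taken by each of 30 function lists, 1 coloured point per vehicle library with the mean as a black bar. Interferon response genes are at the top with a mean of 6.97% and the cell cycle at the bottom with 0.0233%, and the purple point of replicate 3 lies to the right for the lysosome, lipid and respiratory chain lists.

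Presentation on MHC class I took 2.15% ± 0.198 of the counts, with H2-D1 at 5516 CPM ± 484, B2m at 3723 ± 329 and H2-K1 at 3571 ± 334. MHC class II, which presents to CD4 T cells, took 0.138% ± 0.0209, with its invariant chain Cd74 at 553 CPM ± 105, H2-Ab1 at 291 ± 31.03 and H2-Eb1 at 256 ± 35.4. Per length the median member of the class I list had 417 TPM and that of the class II list 17.04 TPM. At least 100 CPM was reached by 18 of 21 class I members and 4 of 11 class II members. The class II genes Cd74, H2-Eb1 and H2-Ab1 themselves had 1059, 424 and 364 TPM, against 13876, 6870 and 3904 TPM for B2m, H2-D1 and H2-K1. Cd274, which encodes PD-L1, a ligand that restrains T cells, was the ninth gene by CPM with 4735, 6291 and 6494 CPM as lowest, median and highest level. Reads of H2-D1 and H2-K1 may be shared with other genes of this family, since the sources do not say how multiply mapped reads were counted.

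Surface receptors and adaptors of phagocytes took 2.60% ± 0.229 of the counts. Clec4e, the lectin Mincle that binds glycolipids of microbes, had 4057 CPM ± 799 and Ccrl2, a non-signalling chemerin receptor, 1928 ± 335. The NADPH oxidase that makes superoxide took 0.574% ± 0.0281, mostly through its catalytic subunit Cybb, which varied little with 3558 to 4219 CPM and a CV of 6.21%. Its membrane partner Cyba had 679 CPM ± 81.3 and the cytosolic subunit Ncf1 423 ± 81.0. Of the inflammasome and pyroptosis genes, 0.231% ± 0.0193 in all, the sensor Nlrp3 had 919 CPM ± 220 and Casp4, which senses lipopolysaccharide in the cytosol, 475 ± 43.8. Complement genes took 0.246% ± 0.0169, with C3 at 1257 CPM ± 90.2.

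The list named for matrix proteins, proteases and coagulation factors took 2.23% ± 0.386. Of its mean sum of 22329 CPM, 6253 CPM was Gpnmb, so that the share is not of these functions alone. Gpnmb, a membrane glycoprotein of lipid-laden macrophages, led this list by CPM with 4877, 5922 and 8541 as lowest, median and highest level, and Thbs1, thrombospondin, had 2427, 3725 and 5556 CPM. The genes of lipid uptake, storage and efflux took 1.05% ± 0.158, led by Apoe with 3634 CPM ± 634, Lgals3 with 1342 ± 295 and the lipid-droplet coat Plin2 with 950 ± 133. In replicate 3 Gpnmb, Apoe, Lgals3 and Plin2 were each at their highest level. Genes of the cytoskeleton took 3.55% ± 0.106, led by Actb with 5841 CPM ± 935 and Vim with 3816 ± 496.

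Among the lists of energy and protein metabolism the shares differed widely. Ribosomal proteins held 2.17% ± 0.225 of counts and 4.09% ± 0.290 of TPM, with Rplp0 at 809 CPM ± 83.9 and with 58 of 69 abundant members highest in replicate 3 against 22.6% of all abundant genes, and translation factors 1.61% ± 0.139, led by Eef1a1 at 4703 ± 345 CPM. Replicate 3 also held relatively less of long transcripts, as given below, and the part of this in the ribosomal count was not tested. Glycolysis and hypoxia genes held 0.964% ± 0.0924, led by Pfkfb3, which raises glycolytic flux, with 1287 CPM ± 209 and Hk3, a hexokinase, with 1104 ± 157, whereas per length Hk3 had 964 TPM and Pfkfb3 547. The mRNAs made in the mitochondrion held 0.492% ± 0.0424, the nuclear genes of the respiratory chain 0.270% ± 0.0288 and the citric acid cycle 0.0707% ± 0.00533. Antioxidant genes held 0.676% ± 0.128, and their leader Sqstm1, an autophagy receptor of the NRF2 pathway, ranged from 1960 CPM in replicate 6 to 4797 in replicate 4. Chaperones held 0.540% ± 0.0361 and the ubiquitin and proteasome genes 0.361% ± 0.0395. Genes of alternative activation held 0.129% ± 0.01405, with the transglutaminase Tgm2 at 571 CPM ± 56.5. Cell cycle genes held 0.0233% ± 0.00524, and Mki67 ranged from 52.7 to 145 CPM. Nuclear long non-coding RNAs held 0.0986% ± 0.0189, led by Malat1. All 30 lists together, with 934 genes found among the symbols, covered 45.4% ± 1.51 of the counts, 27 of the 30 highest genes and 75 of the 100 highest.

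The labels name peritoneal cells without a cell type, and of the marker lists that of macrophages had the largest sum in CPM. Its 8 members summed to 7347, 6702, 9020, 6106, 6941 and 6281 CPM in replicates 1 to 6. More than any other member Lyz2, which monocytes and neutrophils also express, made up this sum, and the other 7 summed to 2401 to 3127 CPM. The scavenger receptor Cd68 had 904 to 1314 CPM, the surface antigen Adgre1 528 to 671, the integrin Itgam 270 to 335, the high-affinity IgG receptor Fcgr1 239 to 591 and Csf1r 157 to 251 CPM. The 7 markers of resident large peritoneal macrophages summed to 72.4 to 91.6 CPM, of which Cd93 made up 40.0 to 52.4 and Prg4 13.9 to 19.4 CPM. The transcription factor Gata6, which defines these cells, had 0.932 to 5.89 CPM and Timd4 2.58 to 9.31 CPM. The list as a whole is not specific to these cells, since its sum was higher in the vehicle lungs and hearts compared below. In bulk RNA, fewer cells of a type cannot be told apart from less RNA per cell.

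The list for recently recruited monocytes summed to 1998 to 3737 CPM, but 1493 to 3274 of this was Fn1, fibronectin, which elicited macrophages also make, and the other 6 members summed to 333 to 528 CPM. Vcan, versican, had 169 to 311, the chitinase-like Chil3 58.8 to 144, Plac8 17.95 to 77.2 and F13a1 19.7 to 48.9 CPM. Ccr2, the receptor by which inflammatory monocytes leave the marrow, and their surface marker Ly6c2 had 6.97 to 21.2 and 6.27 to 19.5 CPM. The neutrophil list summed to 564 to 1016 CPM, most of it Csf3r with 399 to 649 CPM, a receptor that macrophages also carry. S100a8 and S100a9, calcium-binding proteins abundant in neutrophils, had 52.9 to 137 and 38.2 to 127 CPM, and per length their means of 399.5 and 465 TPM were near the 492 TPM of Csf3r. Ly6g had 0.612 to 1.48 CPM, and Camp, Ngp, Mpo and Elane, made in granulocyte precursors, at most 0.389, 0.353, 0.253 and 0.117 CPM.

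**Figure D3:**
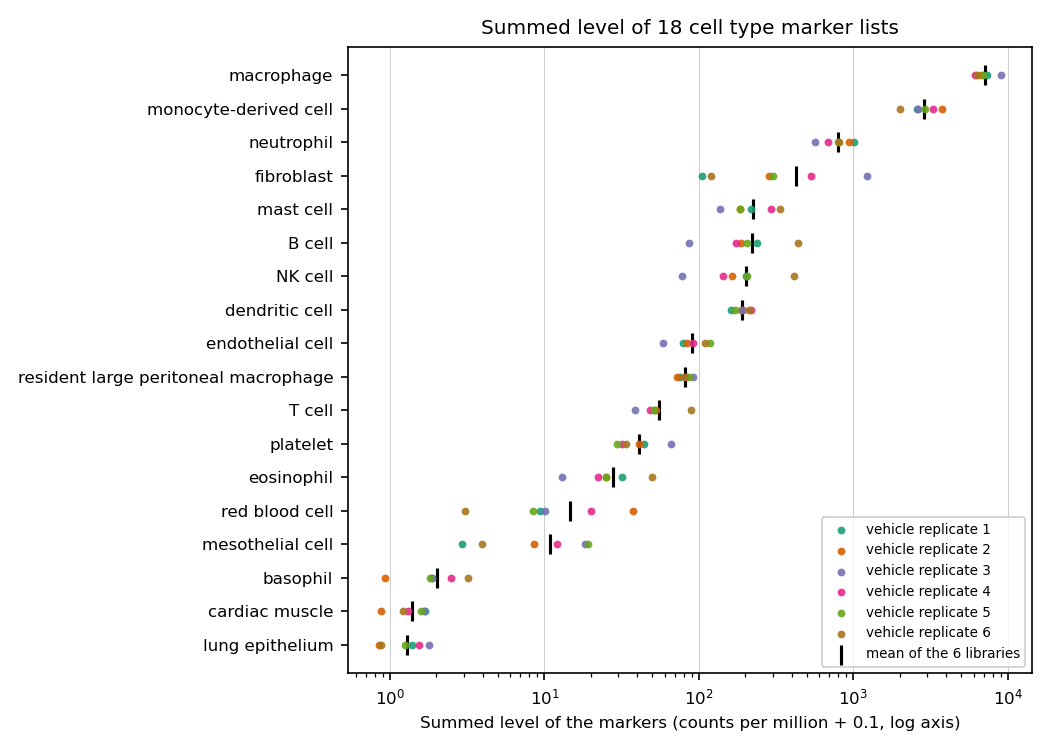
Summed level of the markers of 18 cell types (x axis, CPM + 0.1, log scale), 1 coloured point per vehicle library with the mean as a black bar. Macrophage markers lead with 6106 to 9020 CPM, replicate 3 is highest for fibroblasts and lowest for B, NK and T cells, replicate 6 is highest for those lymphocytes, and markers of lung epithelium and cardiac muscle lie near 1 CPM.

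Lymphocyte markers were low in sum and uneven between libraries. The supernatant of the wells was removed before the cells were preserved, and how many loosely attached cells went with it was not measured. NK cell markers summed to 202, 165, 77.8, 144, 204 and 414 CPM in replicates 1 to 6, with the granzymes Gzmb and Gzma and the receptor Ncr1 leading. B cell markers summed to 237, 186, 86.4, 175, 206 and 436 CPM, with Ighm, the heavy chain of IgM, leading. T cell markers summed to 51.3, 52.8, 38.3, 48.1, 51.0 and 89.4 CPM, of which the kinase Lck made up 20.8 to 41.5 CPM, while the receptor chains Trbc1 and Trbc2 had 4.99 to 15.6 and 1.91 to 6.31 CPM and Cd3e, a subunit of the receptor complex, 0.518 to 1.502 CPM. Per length Trbc1 was above Lck, with means of 39.02 and 31.9 TPM. Replicate 6 was the highest and replicate 3 the lowest library for all 3 lists. Mast cell markers, led by Kit and the protease Cma1, summed to 136 to 334 CPM and were likewise lowest in replicate 3 and highest in replicate 6.

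Fibroblast markers were highest in replicate 3. The list summed to 105, 283, 1222, 533, 303 and 119 CPM in replicates 1 to 6. A mean of at least 1 CPM was reached by 5 of its 6 members, against 11297 of all 54658 symbols. The collagens Col1a1, Col1a2 and Col3a1 and Dcn, decorin, were each highest in that library. Mesothelial markers were low, with sums of 2.83 to 19.1 CPM, and highest in replicates 5 and 3. Dendritic cell markers summed to 162 to 218 CPM, mostly Ccr7 with 129 to 165 CPM, a receptor of migrating cells. The transcription factor Zbtb46 had 19.5 to 38.7, Xcr1 3.69 to 9.12 and Flt3 4.00 to 7.27 CPM, while Clec9a and Siglech were below 1 CPM. The endothelial sum of 58.4 to 118 CPM was almost all Kdr, lowest in replicate 3 and highest in replicate 5, with Emcn and Cldn5 at most 0.193 and 0.107 CPM. Eosinophil markers summed to 12.9 to 49.8 CPM, lowest in replicate 3 and highest in replicate 6, as were the receptors Ccr3 with 4.76 to 20.2, Il5ra with 4.31 to 16.98 and Siglecf with 3.60 to 12.01 CPM. The granule genes Prg2 and Epx had at most 0.257 and 0.212 CPM. Basophil, red blood cell and platelet sums were at most 3.11, 37.4 and 66.3 CPM. Lung epithelium and cardiac muscle markers summed to at most 1.70 and 1.57 CPM.

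Most abundant genes varied little between libraries. The median CV over the 1780 abundant genes was 13.5%, with quartiles at 9.45% and 18.9%, and 509 genes had a CV under 10%. Counting error alone would give a CV of 1.79% at 100 CPM in the shallowest library, where that level stands on 3113 reads. A CV of at least 30% was found for 117 genes (6.57%) and of at least 50% for 17. The steadiest was Arpc2, a subunit of the actin-branching complex, with 371 to 389 CPM and a CV of 2.00%. With edgeR, which removes counting error and shares information between genes, the common biological coefficient of variation over 14042 genes was 24.6%.

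**Figure D4:**
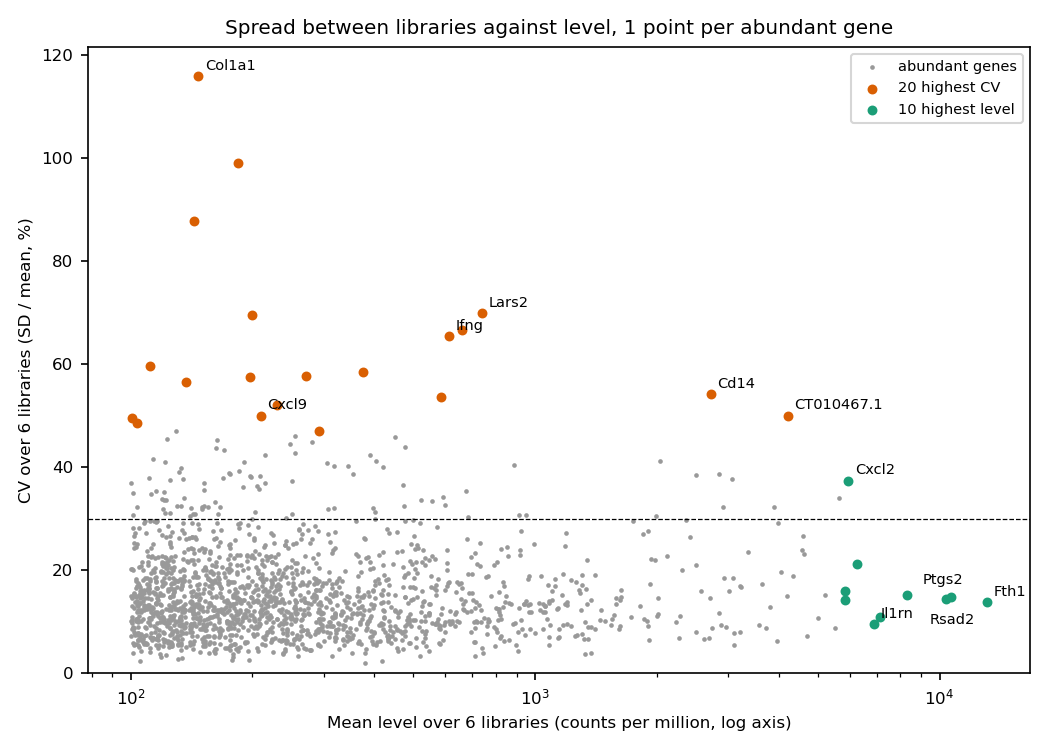
Spread between the 6 vehicle libraries (y axis, CV in %) against mean level (x axis, CPM, log scale) for the 1780 abundant genes, 1 point per gene, with the 20 highest CVs in orange, the 10 highest levels in green and a dashed line at 30%. Col1a1 has the highest CV of 116%, and Cd14 and CT010467.1 combine a high level with a CV above 50%.

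The 20 abundant genes with the highest CV are chosen by that spread, so their values are a description, and 19 of them are described here. They ran from Col1a1 with 116% to Odc1 with 47.03%, just above Satb1 with 46.99%, which was left out. Col1a1 and Col1a2 reached a mean of 100 CPM only with replicate 3, having means of 81.2 and 97.2 CPM without it, and Ighm and Pim2 only with replicate 6, with 87.7 and 85.3 CPM without it. Without replicate 3, 11 of the 20 remained among the 20 highest. The CV of 6 of the 20 fell by over 1.5 times when 1 library was left out. Without replicate 3 it was 76.6% for Col1a1, 34.5% for Procr, 26.03% for CT010467.1 and 30.08% for Odc1, and without replicate 6 it was 33.97% for Tnfrsf9 and 29.6% for Pim2. Replicate 3 was the highest library for 11 of the 20 and the lowest for 5, and replicate 6 was the highest for 6 and the lowest for 10. Among the 117 genes with a CV of at least 30% the order differed. There replicate 3 was highest for 28 (23.9%) and lowest for 42 (35.9%), and replicate 6 highest for 49 (41.9%) and lowest for 38 (32.5%). Over all abundant genes replicate 3 was highest for 22.6% and lowest for 28.1%, and replicate 6 highest for 18.7% and lowest for 17.9%.

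Col1a1 and Col1a2 encode the chains of type I collagen, which fibroblasts secrete. Col1a1 had 31.6, 79.1, 476, 181, 87.4 and 26.7 CPM in replicates 1 to 6 (chr11:94936224-94953042), and Col1a2 had 34.8, 100.0, 376, 182, 125 and 43.6 CPM. For both genes replicate 3 was the highest library and replicate 4 the next, and replicates 1 and 6 were the lowest. Both genes belong to the fibroblast list and make up most of its sum, and the part of fibroblast content in their levels was not tested.

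Among the other genes that were high in replicate 3, Cd14, the lipopolysaccharide co-receptor, had 1860, 2931, 5309, 3237, 1884 and 1138 CPM. Cxcl1, another attractant of neutrophils, had 366, 429, 1331, 1097, 484 and 259 CPM. Both genes were lowest in replicate 6 and had their 2 highest levels in replicates 3 and 4. Cxcl3 had a range of 135 to 550 CPM with its highest level in replicate 4, and Csf3, the growth factor of neutrophils, a range of 77.5 to 377 CPM with its highest level in replicate 3. Procr, the receptor of protein C, reached 782 CPM and Odc1, the first enzyme of polyamine synthesis, 540 CPM in replicate 3, against medians of 313 and 233 CPM.

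The opposite order was seen for Ifng, the macrophage-activating interferon of NK and T cells, with 665, 628, 188, 307, 551 and 1338 CPM. Ighm had 138, 82.3, 40.0, 79.7, 98.3 and 231 CPM. Tnfrsf9, a co-stimulatory receptor of activated lymphocytes, ranged from 64.2 to 280 CPM, and the kinase Pim2 from 43.3 to 196. These 4 genes were lowest in replicate 3 and highest in replicate 6, as were the sums of the NK and T cell markers. Ighm is itself on the B cell list and a large part of its sum. Cxcl9, an interferon gamma target, had 287, 298, 80.7, 78.7, 219 and 297 CPM, and Fgl2, a fibrinogen-like protein of macrophages and T cells, 84.3 to 403 CPM, and both had their lowest 2 levels in replicates 3 and 4. What part the lymphocyte content had in these levels was not tested.

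**Figure D5:**
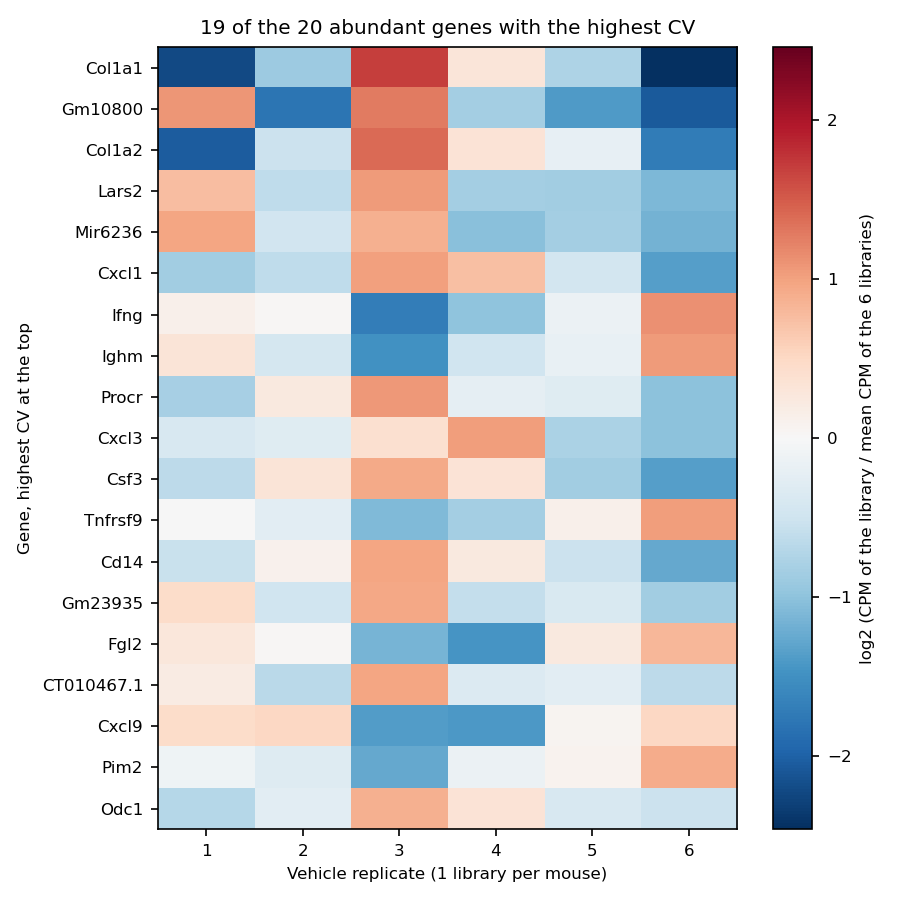
Level of 19 of the 20 abundant genes with the highest CV in each vehicle library (columns, replicates 1 to 6), as log2 of CPM over the mean of the 6 libraries, red above and blue below it. Replicate 3 is red for collagens, Cd14 and Cxcl1 and blue for Ifng and Ighm, replicate 6 shows the reverse, and Gm10800, Lars2, Mir6236, Gm23935 and CT010467.1 are red in replicates 1 and 3.

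A further 5 of the 20 were CT010467.1, annotated as ribosomal RNA, the entries Gm10800, Mir6236 and Gm23935, and Lars2, a mitochondrial tRNA synthetase gene. CT010467.1 had 4860, 2673, 8217, 3343, 3540 and 2697 CPM (chr17:39846353-39848827), and Lars2 had 1257, 481, 1533, 415, 406 and 345 CPM. All 5 features had their highest 2 levels in replicates 1 and 3. These libraries also held relatively less of long transcripts: between the 444 abundant genes with the longest exon length (above 7412 bases) and the 445 with the shortest (below 2929 bases), the median log2 level relative to the other libraries differed by -0.36 in replicate 3 and -0.21 in replicate 1, and by 0.06 to 0.19 in the other 4. The part of RNA quality or library preparation in any difference between libraries was not tested.

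Against lungs and hearts of vehicle mice, the stimulated cells held higher shares of cytokine, chemokine, interferon response and lysosomal genes and lower shares of the nuclear genes of the respiratory chain. The summed CPM of each of 30 function and 18 marker lists was compared on the log2(CPM + 1) scale with an exact two-sided permutation test, 6 libraries against 3, whose smallest p of 0.0238 became 0.0305 after Benjamini-Hochberg adjustment over 96 tests. Against vehicle lungs 38 of 48 lists (79.2%) passed and against vehicle hearts 37 of 48 (77.1%). With so many lists past the threshold, a pass says little about any single list. Cell type, stimulation, model of peritonitis and experiment cannot be told apart in this comparison.

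Cytokines summed to 21345 CPM ± 1845 (n = 6) here and to 737 ± 288 (n = 3) in lungs, a difference of 4.94 ± 0.39 (standard error, SE) on the log2 scale. Chemokines differed from lungs by 4.90 ± 0.11, interferon response genes by 4.33 ± 0.44, the NADPH oxidase by 3.54 ± 0.15 and the broad list named for NF-kappaB by 2.94 ± 0.35, and from hearts these lists differed by 4.46 to 5.76. Lysosomal genes differed by 1.57 ± 0.14 from lungs and 2.57 ± 0.11 from hearts. Macrophage markers differed by 1.36 ± 0.68 from lungs, where 1 library had 1062 CPM and the other two 4189 and 4526, and by 4.39 ± 0.13 from hearts. With CPM on total counts, 7 function and 8 marker lists passed as lower in the peritoneal cells than in lungs, and 5 and 4 as lower than in hearts. Among them were the nuclear respiratory chain, by -1.78 ± 0.20 against lungs and -3.73 ± 0.15 against hearts, the citric acid cycle, by -1.15 ± 0.24 and -4.26 ± 0.17, and nuclear long non-coding RNAs, by -2.16 ± 0.28 and -1.19 ± 0.13. Ribosomal proteins were lower than in lungs, by -1.18 ± 0.28, and higher than in hearts, by 0.62 ± 0.19. Resident peritoneal macrophage markers summed to 565 CPM ± 223 in lungs and 804 ± 501 in hearts, so that the peritoneal cells were lower by -2.70 ± 0.38 and -3.09 ± 0.57. The mRNAs made in the mitochondrion, which also encode subunits of the respiratory chain, differed by 0.32 ± 0.47 from lungs (exact permutation test, adjusted p = 0.653) and by -5.17 ± 0.26 from hearts. In the peritoneal cells most of the neutrophil sum was Csf3r with 552 CPM ± 93.1, a receptor that macrophages also carry. Neutrophil markers summed to 799 CPM ± 164 here and 2319 ± 953 in lungs, a difference of -1.48 ± 0.37, and to 39.9 ± 9.90 in hearts, a difference of 4.30 ± 0.25. The signs of the lists named with values in this paragraph were the same when libraries were scaled by the trimmed mean of M-values (TMM) over all samples, a scaling that raised every peritoneal gene by 1.08 against lungs and 0.39 against hearts on the log2 scale. Against lungs it left the citric acid cycle at -0.07 (exact permutation test, adjusted p = 0.65), ribosomal proteins at -0.10 (exact permutation test, adjusted p = 0.667) and neutrophil markers at -0.40 (exact permutation test, adjusted p = 0.273), which no longer passed, and put the mitochondrial mRNAs at 1.40 (exact permutation test, adjusted p = 0.0286), which then passed. Against hearts it left nuclear long non-coding RNAs at -0.80 (exact permutation test, adjusted p = 0.0557), which no longer passed. Of the function lists, only the nuclear respiratory chain at -0.70 and nuclear long non-coding RNAs at -1.08 then still passed as lower than in lungs. Fibroblast markers no longer passed against lungs, and chaperones, ubiquitin and proteasome, and alternative activation turned sign, as given below.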

How the data were processed

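RNA was measured by poly(A) sequencing on a NovaSeq. The deposited files hold raw read counts by gene symbol, 1 table for each experiment, and per the submitters' processing notes reads were aligned to mm10 with STAR 2.7.3a and counted with featureCounts 2.0.0. Which annotation and strand setting were used and how multiply mapped reads were treated are not given in the sources used here. Genes that overlap or have near-identical copies are therefore uncertain. Columns were assigned to samples by the codes in the sample titles.

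CPM were computed on the total count of each library, and TPM with union exon lengths of GENCODE M21 for 53994 symbols (99.9% of counts). Values are mean ± SD over libraries. TMM factors and dispersions came from edgeR 4.0.16 under R 4.3.3 with filterByExpr and an intercept alone. Among the 6 libraries no groups were compared, and the one test was Dixon's criterion for a library far from the others. Nothing in the labels says which libraries share a batch. Spread is given between libraries, and the parts of mouse, library preparation and sequencing in it were not tested. Named genes were the 30 highest by mean CPM, the 20 highest by CV among those with at least 100 CPM, the 3 highest of each function list and the marker genes. A few of these genes are not reported here. The members, the 30 function lists and the 18 marker lists were chosen with earlier results of these data known. The permutation test and dispersion fit were tested on simulated data. Alternatives were TMM and DESeq2 1.42.0 scaling, TPM, other totals and minimum levels, other priors and leaving out each library. Total counts of 31126823 or more keep counting error at 100 CPM to a CV of 1.79%, and n = 6 limits the precision of each SD. RefSeq promoters were matched by symbol. The 6 beta-NMN peritoneal libraries were not used here.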

Additional observations from a re-analysis of the deposited data

Results flagged for a closer look

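Of 97 levels and sums that were checked for a library far from the other 5, 10 had one. Chance gives about 1 in 20 for values not chosen by their spread, whereas 20 of the genes checked were chosen by their CV in these libraries, and lists and genes overlap, so that this rate does not apply to the count as a whole. In each case the distance to the nearest library exceeded 0.625 of the whole range.

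Replicate 3 was the library far above the others for lysosomal genes with 5.73% of counts (the next library had 4.58%), for lipid handling with 1.35% (1.04%), for the nuclear genes of the respiratory chain with 0.327% (0.274%), for chaperones with 0.609% (0.542%) and for Col1a1 with 476 CPM (181). Col1a1 was chosen by its CV and reached a mean of 100 CPM only with replicate 3, with 81.2 CPM without it, so its flag is not independent of that choice. Replicate 3 is also the library that held relatively less of long transcripts and the most CT010467.1.

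Replicate 6 was far above the others for NK cell markers with 414 CPM (the next library had 204) and for T cell markers with 89.4 CPM (52.8). Replicate 2 was so for microbicidal and metabolic effectors with 3.75% (3.12%), replicate 4 for AP-1 and immediate early genes with 1.44% (1.29%), and replicate 1, the shallowest library, for mitochondrial rRNAs with 0.117% (0.0833%).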

How the results depend on the processing

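Scaling by TMM or DESeq2 size factors, leaving mitochondrial genes out of the total, or leaving out CT010467.1 (an alternative chosen after seeing the data) moved none of the levels, shares, sums and counts described for the 6 libraries by more than their spread, or by over 1.5 times for counts. The spread ranking was less stable: of the 20 genes with the highest CV, 11 to 19 stayed when each library was left out in turn, 12 with a minimum of 50 CPM and 11 with 200 CPM, and 205 and 58 genes reached a CV of 30% at these minima in place of 117. By TPM, 17 of the 30 highest genes stayed and the function lists held 54.3%. Leaving out a lung or heart library left 0 of 48 lists past the threshold, since 6 against 2 libraries cannot give a p under 0.0714, while leaving out a peritoneal library left 38 to 39 lists for lungs and 37 to 39 for hearts. TMM scaling over all samples turned the sign against lungs for translation factors (0.99), complement (0.99), chaperones (0.24), ubiquitin and proteasome (0.54), alternative activation (0.31) and the cell cycle (0.90), which were -0.09, -0.09, -0.84, -0.54, -0.77 and -0.17 on the log2 scale before, each past the threshold under at least 1 of the scalings. The sign also turned for 3 lists against lungs and 4 against hearts that passed under neither. This follows from the shift of all genes that the scaling makes. No paired analysis was possible because the peritoneal cells and the organs came from different mice, and the other results compare no groups. Depth limits none of the abundant genes, whereas markers near 1 CPM stand on about 31 reads in the shallowest library.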
